A study of Mus musculus with 4 samples.

Results

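The genes of the NRF2 antioxidant response were followed in mouse bone marrow while it was turned into a culture of osteoclasts, the large cells with many nuclei that dissolve bone. The set was chosen by gene symbol and held 10 genes: Nfe2l2, Keap1, Nqo1, Hmox1, Gclm, Gclc, Srxn1, Txnrd1, Slc7a11 and Prdx1. The Affymetrix array carried 24 probe sets for them, out of 45101. Of these, 19 probe sets belonged to 9 of the genes alone. The other 5 were annotated to both Prdx1 and a gene named Gm21399, so Prdx1 has no level of its own here. It is left out of every count of signal differences, save in an alternative setting named below. It is kept in the promoter counts.

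All arrays came from marrow of C57Bl/6J females, 12 weeks old. Day 1 is marrow on the day it was taken, which the labels give as 0 days of differentiation. Day 4 is marrow after 3 days with 10% serum and 10 nM vitamin D3. Day 5 and day 7 (labelled 4 and 6 days of differentiation) are marrow that afterwards also received M-CSF at 20 ng/ml, a growth factor of macrophages, and RANKL at 40 ng/ml, the signal for osteoclast formation, still with vitamin D3. Each day was measured on 1 array, and the labels do not say how many mice or cultures went into it, so there is no replicate error, no test and no p-value. Every culture with M-CSF and RANKL was also older, so the cytokines and time cannot be told apart. The marrow is a mixture of cells, so fewer cells of a type and less RNA per cell cannot be told apart either.

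NRF2, the protein of Nfe2l2, is a transcription factor that is made all the time and destroyed at once while the cell is at rest. KEAP1 holds it and hands it to a ubiquitin ligase built on CUL3, and reactive molecules that modify KEAP1 stop this, so that NRF2 builds up and pairs with small MAF proteins on antioxidant response elements. Its activity is therefore set largely at the protein level, which arrays do not measure. Its targets make and use glutathione, recycle thioredoxin and peroxiredoxins, and break down haem and quinones. In osteoclast precursors RANKL is known to raise reactive oxygen species, and in mice NRF2 is known as a brake on osteoclast formation.

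The signal of a probe set is its brightness on a linear scale, and any signal below 32.4, the median over all 4 arrays, is counted as that floor. Differences are log2 of the later day over the earlier one, a gene is represented by its probe set with the highest mean, and at least 2-fold is the size at which a gene is called higher or lower. All 9 genes were above the floor on every array. Probe sets of the same gene differed by a pooled SD of 0.26 (log2) on day 7 over day 5, the smallest of the 5 comparisons, to 0.53 on day 7 over day 1, the largest, a measure of the array's precision and not of variation between cultures.

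The antioxidant genes did not move as a block up to day 5. The haem oxygenase gene Hmox1, the sulfiredoxin gene Srxn1 and, less so, the thioredoxin reductase gene Txnrd1 had higher signals on day 4 than in fresh marrow and kept them on day 5. Compared with day 4, before M-CSF and RANKL, 8 of the 9 genes were lower on day 7. The median log2 difference was -0.58, against -0.08 over all genes above the floor on both arrays. Only Slc7a11 and Gclc, which feed glutathione synthesis, were called lower, and Gclc reached 2-fold on its brighter probe set alone. The cystine transporter gene Slc7a11 had the widest range of the 9, 3.57-fold over the 4 days. The signal of Nfe2l2 itself ranged 1.55-fold and that of Keap1 1.41-fold.

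**Figure D1:**
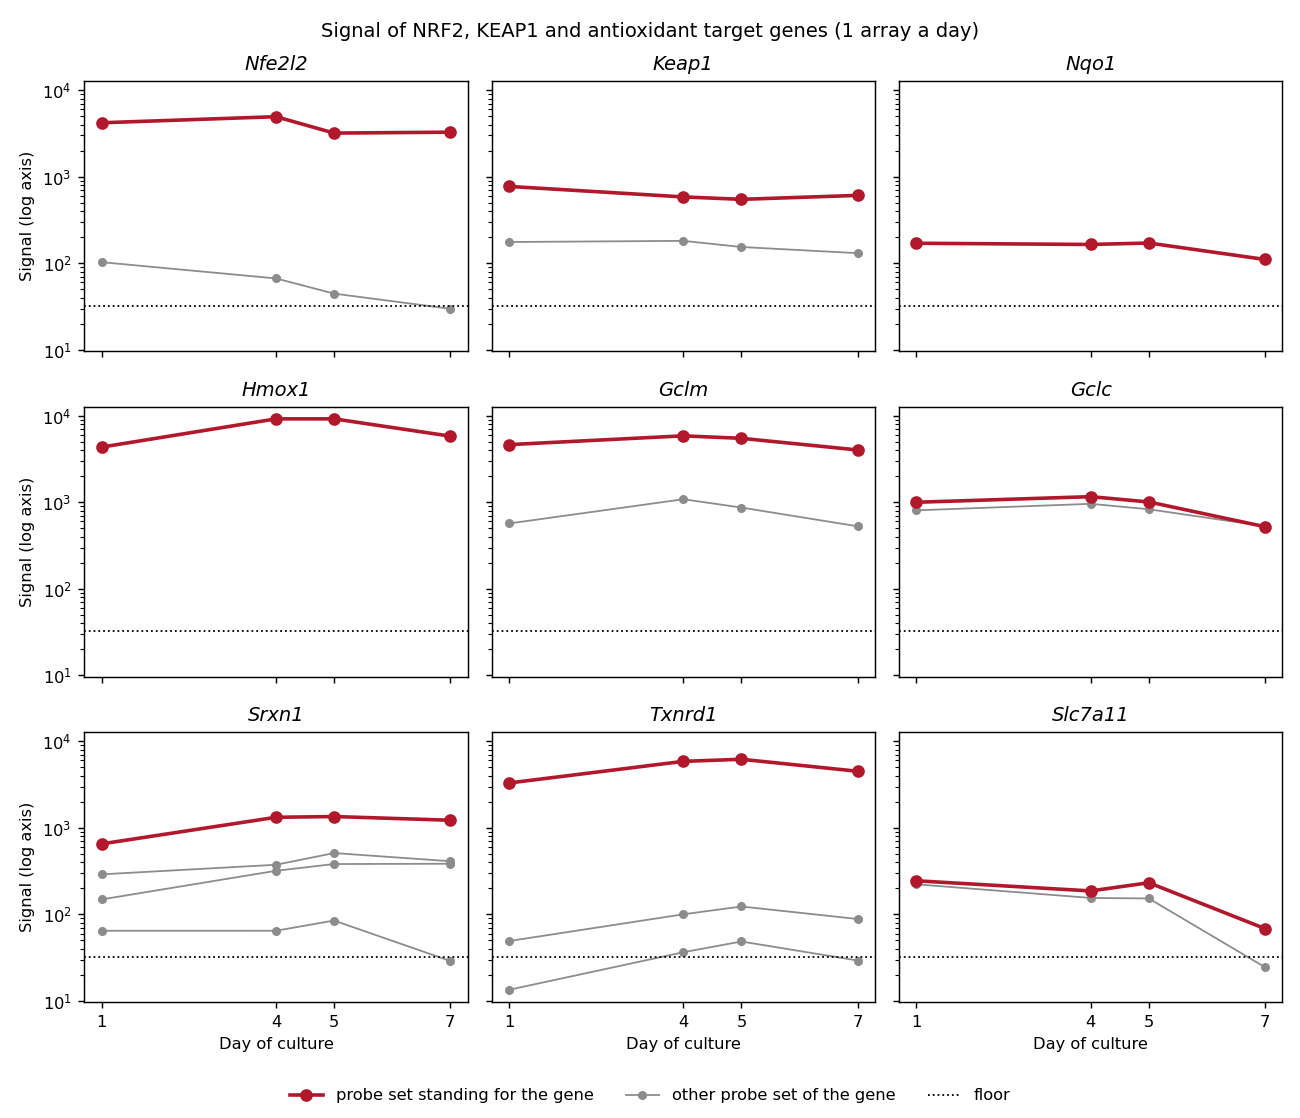
Signal (log axis) of every probe set of the 9 genes against the day of culture, with 1 array a day. Red points are the probe set standing for the gene, grey points its other probe sets and the dotted line the floor of 32.4. Hmox1 is at 9199 and 9202 on days 4 and 5, between lower values on days 1 and 7, and both probe sets of Slc7a11 have their lowest value on day 7.

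Nfe2l2 had signals of 4199.8, 4939, 3193 and 3272 on days 1, 4, 5 and 7. It was thus highest on day 4 and lower on both days with M-CSF and RANKL, with a log2 difference of -0.63 on day 5 over day 4 and of 0.04 on day 7 over day 5. A second, dimmer probe set gave 103, 66.8, 44.6 and 29.8 on days 1, 4, 5 and 7, a decline at each step that ends under the floor. Both probe sets were lower on day 5 than on day 4, with log2 differences of -0.63 and -0.58, but they disagree on day 4 over day 1, with log2 differences of 0.23 and -0.62. Keap1, the gene of the protein that marks NRF2 for destruction, had signals of 773, 584, 548 and 608 over the same days, and 176, 181, 154 and 131 on its other probe set. None of its differences reached 2-fold on either probe set. The log2 difference of Keap1 on day 4 over day 1 was -0.40, where its other probe set gave 0.04.

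Antioxidant response elements share the core TGACNNNGC. It was searched on both strands in the 300 bases around each gene's start (250 before and 50 after) in RefSeq's promoter table for GRCm38.p6, as a description of the sequences. Promoters were found for 8 of the 10 genes, not for Hmox1 and Gclc. The core was present at 5 of these 8 genes (Nfe2l2, Gclm, Srxn1, Txnrd1 and Prdx1), and at 14.0% of all 27025 genes in the table. A gene counted if the window of any of its starts held the core. At Txnrd1, which has several starts, only the middle one did. Counted by window, the core was in 5 of 10, and in 12.4% of all 32851. A match does not show that NRF2 binds there, and the absence of one says only that these letters are not in this window. The motif TGANTCA, bound by AP-1 factors such as FOS, can overlap the core. It was present at 2 of the 8 genes, Srxn1 and Prdx1, and at 8.97% of all genes, and it overlapped the core at Prdx1.

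The sequences of 5 promoters are shown 5′ to 3′ along the gene, with the core in capitals in the direction read: those of Nfe2l2, of the synthesis gene Gclm, of Srxn1 and Txnrd1, which were higher on day 4, and of Slc7a11, which was lower on day 7 and has no match. The windows are chr2:75704614-75704913, minus strand, for Nfe2l2, chr3:122245307-122245606, plus strand, for Gclm, chr2:152105274-152105573, plus strand, for Srxn1, chr10:82858956-82859255, plus strand, for Txnrd1 (the middle one of its 3 starts in the table), and chr3:50443564-50443863, minus strand, for Slc7a11.
Nfe2l2: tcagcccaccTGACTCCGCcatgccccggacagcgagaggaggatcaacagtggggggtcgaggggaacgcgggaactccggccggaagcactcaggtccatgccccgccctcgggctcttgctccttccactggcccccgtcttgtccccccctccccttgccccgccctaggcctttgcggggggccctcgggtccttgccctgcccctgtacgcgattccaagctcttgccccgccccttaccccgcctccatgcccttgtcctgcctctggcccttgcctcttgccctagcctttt
Gclm: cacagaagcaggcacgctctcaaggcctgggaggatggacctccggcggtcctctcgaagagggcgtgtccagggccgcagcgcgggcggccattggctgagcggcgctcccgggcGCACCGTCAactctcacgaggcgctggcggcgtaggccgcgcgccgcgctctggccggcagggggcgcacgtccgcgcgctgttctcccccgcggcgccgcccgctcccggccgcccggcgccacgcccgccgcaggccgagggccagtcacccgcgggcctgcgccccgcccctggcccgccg
Srxn1: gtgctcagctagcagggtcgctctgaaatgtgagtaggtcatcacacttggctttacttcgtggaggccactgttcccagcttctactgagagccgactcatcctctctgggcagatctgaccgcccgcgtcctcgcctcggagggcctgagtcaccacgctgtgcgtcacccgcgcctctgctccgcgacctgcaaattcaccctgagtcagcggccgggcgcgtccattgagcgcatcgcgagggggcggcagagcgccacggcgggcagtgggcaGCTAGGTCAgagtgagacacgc
Txnrd1: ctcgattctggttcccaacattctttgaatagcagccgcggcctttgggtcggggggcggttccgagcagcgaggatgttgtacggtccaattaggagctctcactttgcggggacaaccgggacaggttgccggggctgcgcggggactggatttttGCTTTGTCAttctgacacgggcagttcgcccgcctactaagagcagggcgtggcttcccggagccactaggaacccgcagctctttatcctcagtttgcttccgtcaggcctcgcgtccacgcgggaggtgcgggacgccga
Slc7a11: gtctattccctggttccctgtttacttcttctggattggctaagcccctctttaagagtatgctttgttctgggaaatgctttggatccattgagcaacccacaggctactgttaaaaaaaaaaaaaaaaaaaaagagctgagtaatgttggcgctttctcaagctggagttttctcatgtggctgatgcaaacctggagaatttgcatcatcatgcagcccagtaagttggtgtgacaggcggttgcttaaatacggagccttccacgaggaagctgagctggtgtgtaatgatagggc
In Nfe2l2 the core begins 240 bases before the start and reads forward. In Gclm and Txnrd1 it begins 134 and 92 bases before the start and lies on the opposite strand. In Srxn1 it begins 28 bases after the start, also on the opposite strand.

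Hmox1 encodes the inducible enzyme that splits haem into biliverdin, iron and carbon monoxide, and macrophages that clear red cells express it strongly. Its single probe set had signals of 4341, 9199, 9202 and 5808 on days 1, 4, 5 and 7. It was 2.12-fold higher on day 4 than on day 1, and after quantile normalization this difference was just under 2-fold (log2 0.99). Its log2 difference was 0.00 on day 5 over day 4, and it was -0.66 between day 7 and day 5. On day 7 it still exceeded fresh marrow by 1.34-fold. On day 4 the summed signal of 12 macrophage markers was 74722, against 39999 on day 1, and 6 of the 12 were at least 2-fold higher. Of 7 red cell markers measured, 6 were at least 2-fold lower on day 4 and under the floor there. The other, the transferrin receptor gene Tfrc, was at least 2-fold higher on day 4. Of all genes 10.0% were higher and 8.65% lower on day 4 over day 1. The part of either cell type in the level of Hmox1 was not tested.

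Txnrd1 encodes the cytosolic enzyme that recycles thioredoxin with NADPH. Its signals of 3297, 5862, 6198 and 4504 on days 1, 4, 5 and 7 were highest on day 5, and it was 1.78-fold higher on day 4 than on day 1. A dimmer probe set, at 49.2, 100.2, 123 and 88.4, followed the same order of days and reached 2.04-fold at that step. The last probe set had 13.4, 36.5, 48.6 and 29.3, under the floor on days 1 and 7. All 3 probe sets were therefore highest on day 5 and lower on day 7, with log2 differences of -0.46, -0.48 and, as a bound, -0.58.

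Srxn1 encodes sulfiredoxin, which repairs peroxiredoxins that have been over-oxidised. Its 4 probe sets had signals of 652, 1324, 1351 and 1224, of 149, 319, 382 and 384, of 290.0, 374, 511 and 411, and of 64.6, 64.7, 84.8 and 28.9 on days 1, 4, 5 and 7. The first pair were 2.03-fold and 2.14-fold higher on day 4 than on day 1, the third 1.29-fold, and the dimmest had a log2 difference of 0.002. On day 7 over day 5 the log2 differences were -0.14, 0.01, -0.31 and, for the dimmest, which was under the floor on day 7, -1.39 as a bound. The size of the change in Srxn1 thus depends on the probe set. Without probe sets that may match several transcripts its difference on day 4 over day 1 was 0.37 in log2, and with the mean over its probe sets or with median scaling it was also under 2-fold.

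The 5 probe sets annotated to both Prdx1 and Gm21399 cannot tell these genes apart. Prdx1 encodes an abundant peroxidase that passes electrons from thioredoxin to hydrogen peroxide. On 4 of the 5 the signal was between 6555 and 14795 on every day, and the log2 difference on day 4 over day 1 was between -0.01 and 0.55. The fifth and dimmest had signals of 1196, 3163, 4237 and 1653, which is 2.65-fold higher on day 4 than on day 1 and 2.56-fold lower on day 7 than on day 5.

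Glutathione is made from cystine, taken up by the exchanger of Slc7a11 and its partner chain Slc3a2, by glutamate-cysteine ligase, whose catalytic chain is Gclc and whose modifier chain is Gclm, and then by glutathione synthetase, Gss. Slc7a11 had signals of 244, 186.5, 232 and 68.4 over the 4 days. It was 3.39-fold lower on day 7 than on day 5, and 0.870% of genes measured on both arrays had a more negative difference. Its second probe set had 222, 155, 153 and 24.5, and the last value, under the floor, makes it at least 4.71-fold lower. Day 7 was thus the lowest day on both probe sets, and it was 3.57-fold lower than fresh marrow on the first and at least 6.86-fold lower on the second.

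Gclc had signals of 1000.2, 1161, 1009 and 522 on days 1, 4, 5 and 7, and 807, 959.5, 830.2 and 529 on its second probe set. Both show a small maximum on day 4 and the lowest value on day 7. Gclc was 2.23-fold lower on day 7 than on day 4 and 1.93-fold lower than on day 5, and the second probe set gave 1.81-fold and 1.57-fold. With median scaling the first of these was just under 2-fold (log2 -0.99). Gclm followed the same order of days, with 4637, 5857, 5482 and 4022 on its brighter probe set and 569, 1084, 869 and 528 on the other. It was 1.46-fold lower on day 7 than on day 4 on the brighter probe set and 2.05-fold lower on the dimmer. The modifier and the catalytic chain therefore differed in the same direction at each step, in log2 0.34 (Gclm) and 0.22 (Gclc) on day 4 over day 1, then -0.10 (Gclm) with -0.20 (Gclc) at the next step and -0.45 (Gclm) with -0.95 (Gclc) at the last.

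Nqo1 encodes a reductase that turns quinones into hydroquinones and is the textbook reporter of NRF2. Its single probe set was dim, with 170.3, 165, 171 and 111 on days 1, 4, 5 and 7. The values of days 1, 4 and 5 differed by at most 1.04-fold, and day 7 was 1.55-fold lower than day 5. After quantile normalization the log2 difference of Nqo1 on day 7 over day 5 was -0.33, against -0.63 as deposited. Nqo1 did not share the higher day 4 signal of Hmox1 and Srxn1, with a log2 difference of -0.05 against 1.08 and 1.02.

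Day 4 against day 1 asks what 3 days of culture with vitamin D3 went with. Of the 9 genes, Hmox1 and Srxn1 passed 2-fold upwards and no gene did downwards, at a background of 10.0% of 11981 genes higher and 8.65% lower. The median log2 difference was 0.23, against 0.05 over all genes above the floor on both arrays, and 6 of the 9 were positive. By probe set, 4 of 19 were at least 2-fold higher (Hmox1, 2 of Srxn1 and 1 of Txnrd1), and none was lower, at a background of 8.78% of probe sets higher and 8.98% lower.

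Day 5 against day 4 covers the first day with M-CSF and RANKL. None of the 9 genes and none of the 19 probe sets reached 2-fold, at a background of 2.02% of genes higher and 4.04% lower (1.90% and 3.68% of probe sets). The largest difference was that of Nfe2l2 (-0.63), and the next largest was Slc7a11 at 0.32, where its second probe set gave -0.02. While the Nfe2l2 signal was 1.55-fold lower on day 5, Hmox1, Srxn1 and Txnrd1 had log2 differences of 0.00, 0.03 and 0.08. These 3 signs turned under at least 1 other scaling or choice of probe sets.

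Day 7 against day 5 covers the later days with both cytokines. Slc7a11 was the only gene of the 9 at least 2-fold lower and none was higher, at a background of 5.84% of genes lower and 0.853% higher. By probe set, 3 were lower (both of Slc7a11 and the dimmest of Srxn1) and none higher, at 5.46% and 0.716%. The median log2 difference of the 9 was -0.46, against -0.11 over all genes above the floor on both arrays. Gclc, Hmox1, Nqo1, Txnrd1 and Gclm followed Slc7a11 with -0.95, -0.66, -0.63, -0.46 and -0.45, while Srxn1 was at -0.14, Nfe2l2 at 0.04 and Keap1 at 0.15. Of the 9 genes, 6 (those from Slc7a11 to Gclm in this order) kept their negative sign under all 8 other settings of floor, scaling and probe set. Several of these settings left the 6 values as they were. They were the lower floor, leaving out probe sets that may match several transcripts, and counting the shared probe sets as Prdx1. The higher floor changed only the value of Slc7a11.

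Day 7 against day 4 spans the days with both cytokines. Gclc and Slc7a11 were at least 2-fold lower and none was higher, at a background of 9.12% lower and 3.12% higher. By probe set, 5 were lower (both of Slc7a11 and 1 each of Gclc, Gclm and Nfe2l2) and none higher, at 9.46% and 2.82%. In all, 8 of 9 genes had a negative difference, with a median of -0.58 against -0.08 over all genes. Day 7 against day 1, the end of the culture against fresh marrow, left Slc7a11 lower and no gene higher, at a background of 16.2% lower and 12.7% higher. By probe set, 3 were lower (both of Slc7a11 and the dim one of Nfe2l2) and 1 of Srxn1 higher, at 17.7% and 11.4%. Here Srxn1 (0.91), Txnrd1 (0.45) and Hmox1 (0.42) were above fresh marrow, and Slc7a11 (-1.84), Gclc (-0.94), Nqo1 (-0.62), Nfe2l2 (-0.36), Keap1 (-0.34) and Gclm (-0.21) below it. These comparisons share arrays, so a low day 7 value enters several of them.

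**Figure D2:**
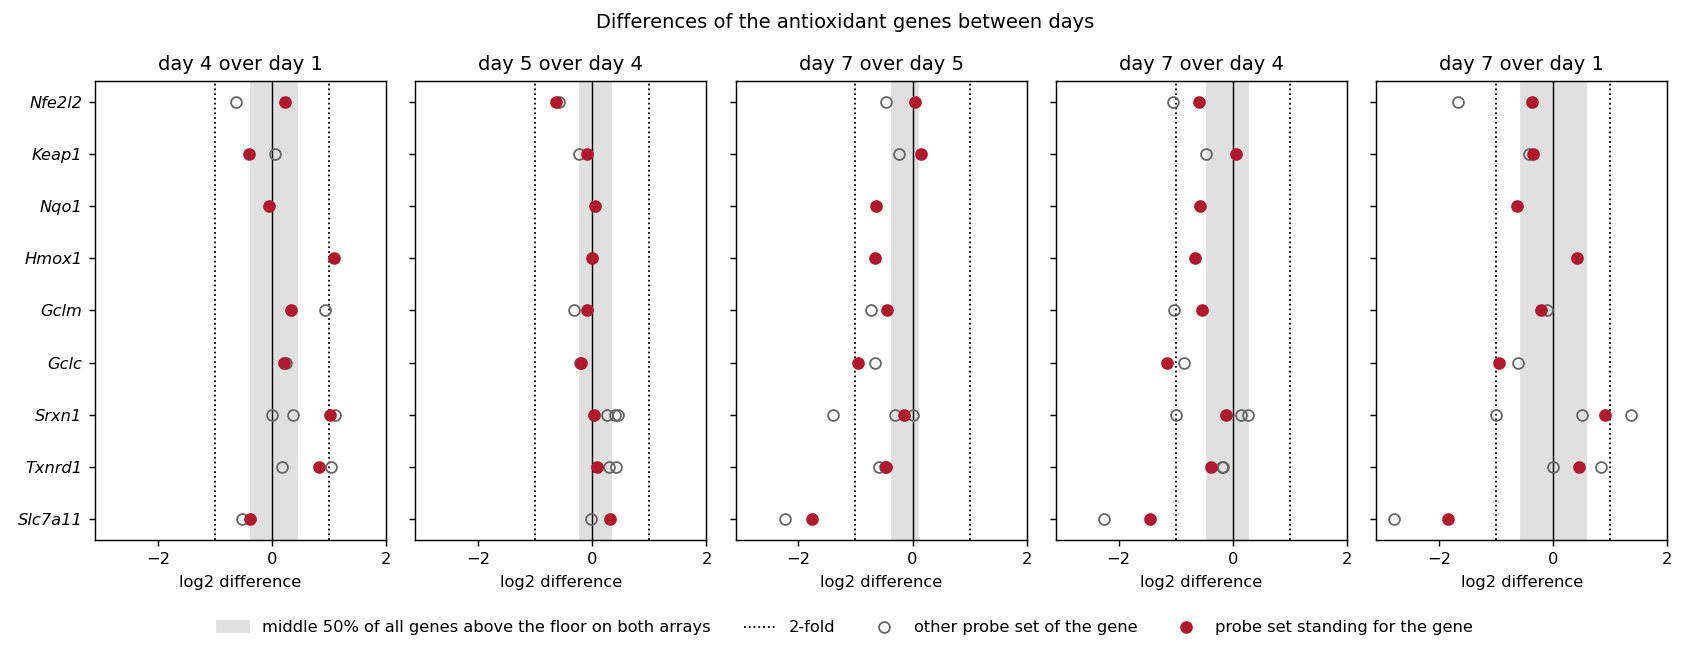
log2 difference of each probe set in each of the 5 comparisons, with the later day over the earlier day. Red points stand for the gene, open points are its other probe sets, the grey band holds the middle 50% of all genes above the floor on both arrays and the dotted lines mark 2-fold. On day 7 over day 5 the points of Slc7a11 lie at -1.76 and -2.23, left of all others.

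Among 17 measured genes that control NRF2 or share its DNA element, none was at least 2-fold higher in any comparison. In each of the 3 steps, from day 1 to 4, 4 to 5 and 5 to 7, the same 2 of them, Bach2 and Nfe2, were lower. No other gene of the list was called at these steps. The share of all genes lower was 8.65%, 4.04% and 5.84%, so the count of the first step was near the background. At day 7 against fresh marrow 7 genes of the list were lower, where the share of all genes was 16.2%. The list's median was -0.40 against 0.01 over all genes tested. Bach1, whose protein represses Hmox1 by holding the same elements, had signals of 2966, 2031, 1325 and 1429 on days 1, 4, 5 and 7, and was 2.08-fold lower on day 7 than on day 1. The small MAF gene Mafk had 487, 285, 225 and 186 and was 2.61-fold lower, while the log2 difference of Mafg was -0.40. Cul3, whose protein carries KEAP1, stayed between 1795 and 2136. Sqstm1, which encodes the autophagy receptor p62 that can draw KEAP1 away and is itself an NRF2 target, had 3407, 4872, 5028 and 4069.

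The largest differences in this list were those of genes known from other blood cells. Nfe2, an erythroid and megakaryocyte factor, was lower by at least 103-fold at day 7 against fresh marrow, with signals of 9.87 on day 7 and 3353 on day 1. Bach2, a B cell factor, was 46.3-fold lower, with signals of 39.1 on day 7 and 1810.5 on day 1. Nfe2 and Bach2 were lower together with the markers of those cells. Of 9 B cell markers 7 and of 9 megakaryocyte and platelet markers 8 were lower by at least 2-fold at that point. So were 6 of the 7 measured red cell markers, where the share of all genes was 16.2%. The part of those cells was not tested. Crebbp, a coactivator, was 2.71-fold lower and a dim probe set of Rbx1, part of the CUL3 ligase, at least 2.98-fold, over the same time. The pattern most like that of Nfe2l2 over the 4 arrays, by root mean square difference of centred log2 signals among 10033 genes, was that of Inpp5e (0.018), followed by Pcgf1, Rab5b, Cipc and R3hdm2 (0.032). With 4 points such likeness is common, and 325 genes lay within 0.15 of Nfe2l2.

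**Figure D3:**
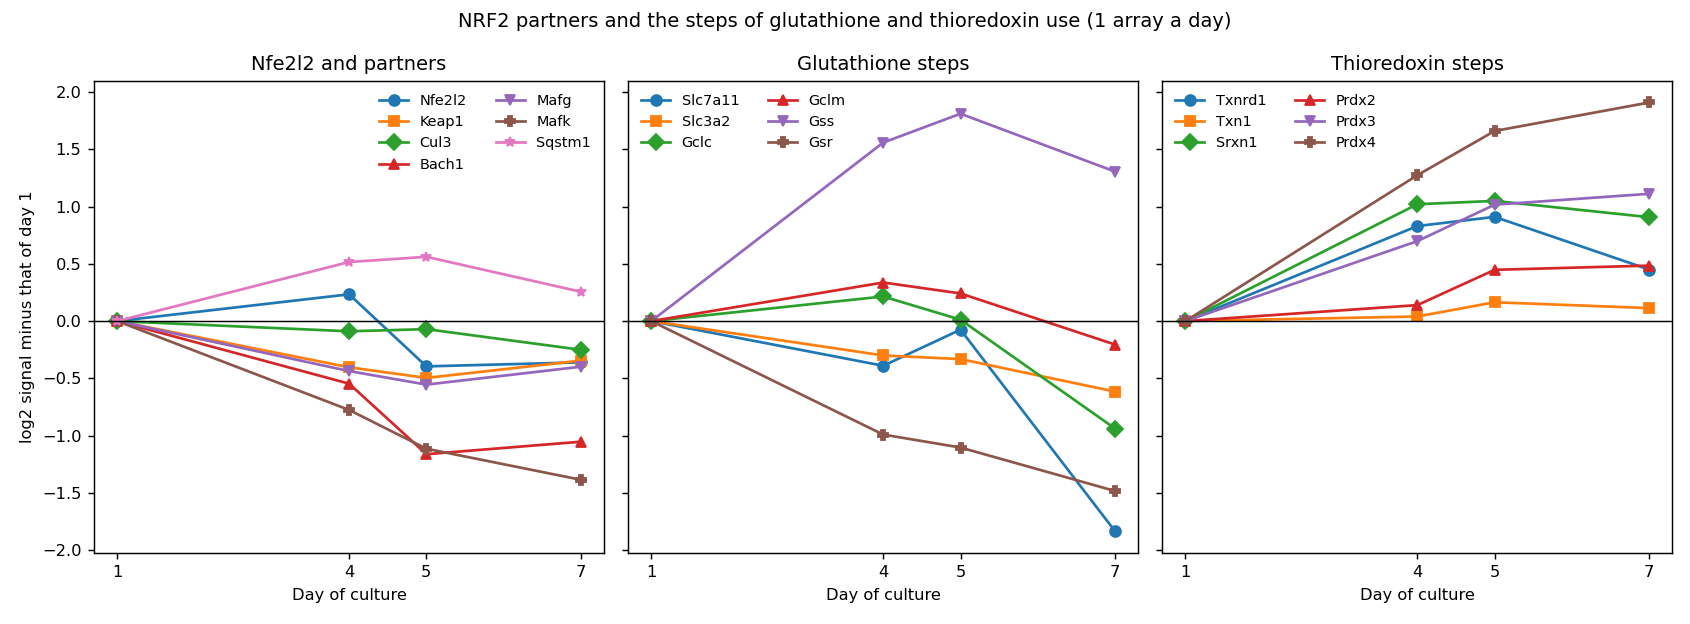
log2 signal minus that of day 1 against the day of culture, with 1 array a day, for Nfe2l2 with its partners, for the steps of glutathione synthesis and use, and for the thioredoxin steps. Gss lies above day 1 while Slc7a11, Gclc and Gsr lie below it on day 7, and Prdx4 is 3.76-fold higher on day 7 than on day 1.

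Along the glutathione route the steps did not share a direction. Gss, the second enzyme of synthesis, had signals of 324, 953, 1135 and 799.6 on days 1, 4, 5 and 7 and was 2.95-fold higher on day 4 than on day 1. Gsr, which reduces oxidised glutathione, had 6706, 3374, 3119 and 2397 and was 2.80-fold lower on day 7 than on day 1. Slc3a2, the partner chain of Slc7a11, was 1.22-fold lower on day 7 than on day 5, where Slc7a11 was 3.39-fold lower. The main peroxidase of membranes, Gpx4, stayed between 5676 and 6107.

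Of 34 genes of glutathione synthesis and use, 11 were at least 2-fold higher and 3 lower on day 4 over day 1 (median 0.08, against 0.06 over all genes tested). Of all genes 10.0% were higher and 8.65% lower, so the share of lower genes in the list was near the background. The largest differences were those of Gpx8, a peroxidase of the endoplasmic reticulum, at 19.0-fold, of Gpx7 at 7.47-fold and of glutathione transferase genes. Of the latter, Gstm2 was at 12.9-fold, and Gsta3 and Gstt1, under the floor on day 1, at no less than 7.63-fold and 6.77-fold on day 4. On the same array all 12 stromal markers were at least 2-fold higher, with a summed signal of 28517 on day 4 against 2058 on day 1. At day 1 the stromal markers Lepr, Ogn, Lum and Tagln were under the floor. The part of stromal cells in these genes was not tested. On day 5 over day 4, 1 gene of the list was higher, the glutaredoxin gene Glrx at 2.37-fold, and 3 were lower (2.02% and 4.04% of all genes). On day 7 over day 5, 1 was higher, Mgst3 at 2.14-fold, and 4 were lower (0.853% and 5.84% of all genes). Mgst3, a membrane-bound transferase, had a signal that was higher on each day than on the one before, 313, 563, 907 and 1944. Mgst1 and Mgst2 went the other way, at 2.21-fold and 6.83-fold lower on day 7 than on day 1.

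Thioredoxin itself, Txn1, had signals of 11302, 11622, 12668 and 12226 on days 1, 4, 5 and 7. Of 16 genes of the thioredoxin and peroxiredoxin system, 1 was higher and 1 lower on day 4 over day 1, none in either direction on day 5 over day 4, and 4 were higher and 4 lower on day 7 over day 1. The shares of all genes higher and lower were 10.0% and 8.65%, 2.02% and 4.04%, and 12.7% and 16.2% in this order, so the counts of the first pair of comparisons were near the background. Prdx4, the peroxiredoxin of the endoplasmic reticulum, had 794, 1921, 2511 and 2984 and was 3.76-fold higher on day 7 than on day 1. The mitochondrial genes Txn2 and Prdx3 were 2.53-fold and 2.16-fold higher over the same time. The methionine sulfoxide reductase genes Msra and Msrb1 were 4.85-fold and 4.17-fold lower on day 7 than on day 1, while Msrb2 was 1.69-fold higher. On the day 7 array all 12 neutrophil markers were at least 2-fold lower than on day 1. Their summed signal was 6259 on day 7 against 127501 on day 1, with Elane, Ctsg and Cd177 under the floor on day 7. The part of neutrophils was not tested.

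Of the other enzymes reported as NRF2 targets, 10 were measured. On day 4 over day 1, 4 were at least 2-fold higher and none lower (median 0.68, against 0.06 over all genes tested), and on day 7 over day 1, 5 were higher and 1, Osgin1, was lower (2.40-fold). Of all genes, 10.0% were higher and 8.65% lower in the first comparison, and 12.7% and 16.2% in the second. On the day 4 array all 12 stromal markers (summed signal 28517 on day 4 against 2058 on day 1) and 6 of 12 macrophage markers were also at least 2-fold higher, and the part of these cells in the target enzymes was not tested. The aldo-keto reductase gene Akr1b8 had signals of 432, 3212, 6445 and 7080 on days 1, 4, 5 and 7, each higher than the one before, and was 16.4-fold higher on day 7 than on day 1. The epoxide hydrolase gene Ephx1 was 3.06-fold and the carbonyl reductase gene Cbr3 2.85-fold higher on day 4 than on day 1. Nqo2, the relative of Nqo1, had 365, 448, 731 and 1140.3 and was 3.13-fold higher on day 7 than on day 1, where Nqo1 was 1.54-fold lower.

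Beside Hmox1, 8 genes of haem breakdown and iron storage or export were measured, with 1 higher and 1 lower on day 4 over day 1 (median 0.64, against 0.06 over all genes tested). These counts were near the background of 10.0% higher and 8.65% lower. The iron exporter gene Slc40a1 was 2.35-fold higher on day 4 than on day 1 and 2.18-fold lower on day 5 than on day 4, a difference not shared by Hmox1. The biliverdin reductase genes Blvra and Blvrb, which act after Hmox1, had log2 differences of 0.58 and 0.74 on day 4 over day 1, and Blvra was 2.06-fold higher on day 7 than on day 1. The haemoglobin receptor gene Cd163 was at least 2.25-fold higher on day 7 than on day 1. Fech, which makes haem, was 6.52-fold lower on day 4 than on day 1, together with 6 of the 7 measured red cell markers. Among 10 genes of NADPH supply only Me1 passed 2-fold, at 3.56-fold higher on day 4 than on day 1, where 10.0% of all genes were higher, and of 4 or 5 superoxide dismutase and catalase genes above the floor none did in any comparison.

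The phagocyte NADPH oxidase makes superoxide. Of its 7 measured genes none was higher in any comparison, 2 were lower on day 4 over day 1, and by day 7 the number below fresh marrow was 3. Of all genes 8.65% and 16.2% were lower in these comparisons. Cybb, the catalytic subunit, had signals of 11116, 7203, 5360.3 and 3995 on days 1, 4, 5 and 7, and Ncf1 had 7800.2, 3681, 2003 and 1716. They were 2.78-fold and 4.55-fold lower on day 7 than on day 1, and Ncf4 was 2.03-fold lower. Neutrophils express these genes strongly, and their 12 markers had summed signals of 127501, 74957, 41288 and 6259 over the same days. The part of neutrophils was not tested.

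Slc7a11 is also a target of ATF4, the factor of the amino acid response. Of 14 genes of that response, none was higher and 2 were lower on day 7 over day 5 (median -0.13, against -0.11 over all genes tested), at a background of 0.853% higher and 5.84% lower. Atf4 had a log2 difference of 0.26 at that step, and the serine synthesis gene Phgdh was 2.22-fold lower. On day 4 over day 1, 4 were lower and 1 higher, with the stress genes Trib3 at 3.95-fold and Ddit3 at 2.52-fold lower and Psat1 at 2.23-fold higher, at a background of 8.65% lower and 10.0% higher. On day 7 over day 4, 3 were lower and none higher (median -0.23, against -0.09), at 9.12% and 3.12%. On day 7 over day 1, 3 were lower and 1 higher (median -0.67, against 0.01), at 16.2% and 12.7%. The part of ATF4 in the level of Slc7a11 was not tested. The pattern closest to that of Slc7a11 was that of Mtm1 (root mean square difference 0.106), followed by H2-Q5, the factor XIII gene F13a1, the endothelial gene Emcn and the apelin receptor gene Aplnr (0.168), and 4 of 10033 genes lay within 0.15. Among the antioxidant genes Gclc was nearest, at 0.37 and rank 114.

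**Figure D4:**
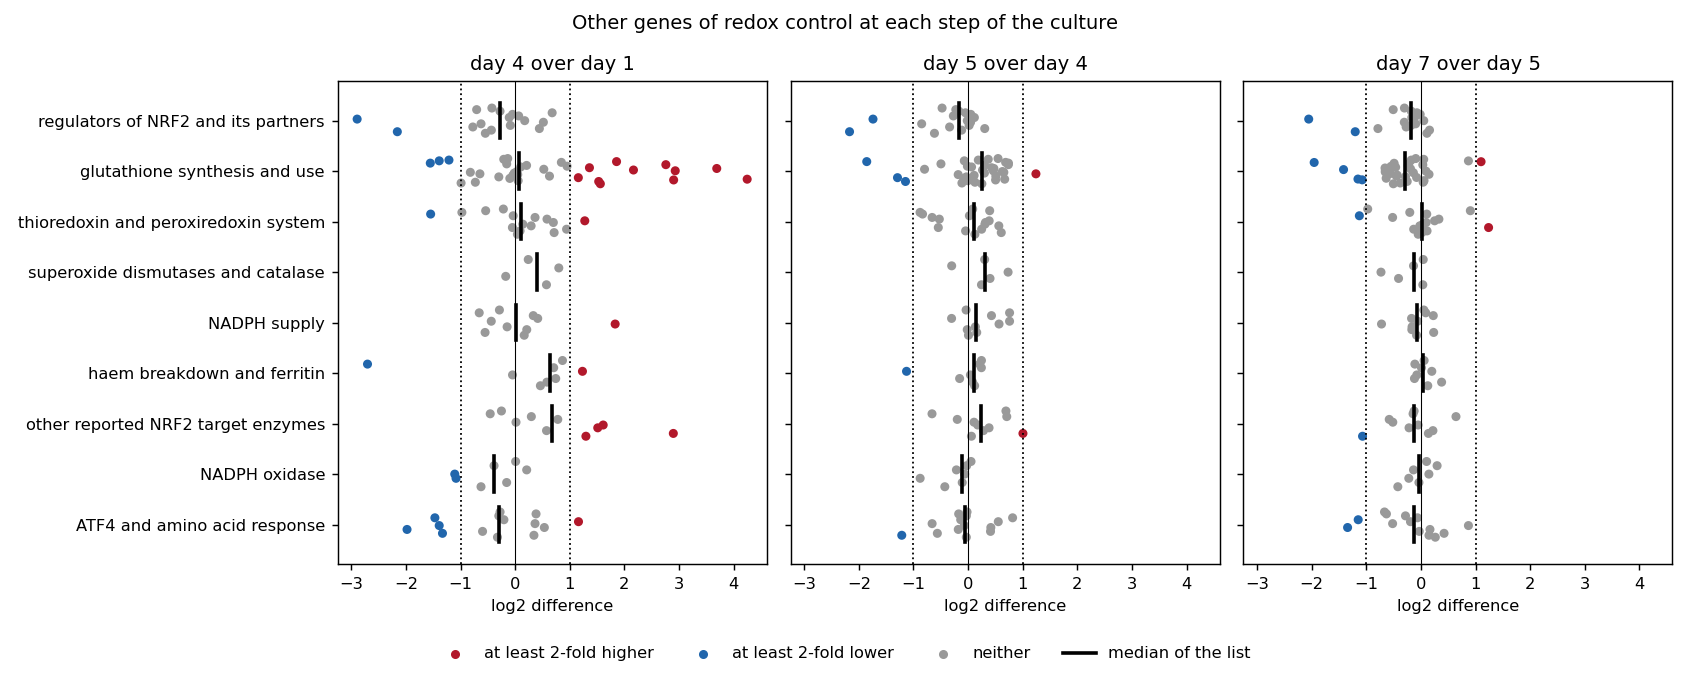
log2 difference of each gene of the 9 lists of redox control at each of the 3 steps, with the later day over the earlier day. Red points are at least 2-fold higher, blue points at least 2-fold lower and black bars the median of the list. On day 4 over day 1, 11 genes of glutathione synthesis and use lie right of the 2-fold line, and on day 5 over day 4 no gene of the thioredoxin list lies outside it.

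The labels call every sample a primary osteoclast. Of 12 osteoclast markers, 8 were above the floor on day 1, 11 on day 4 and all 12 on days 5 and 7, and Calcr, Dcstamp, Ocstamp and Oscar were under it on day 1. Markers of other cells remained: the 12 stromal markers were all above the floor on days 4, 5 and 7, and 9 of 12 neutrophil markers on day 7. Between days 5 and 7, the step at which Slc7a11 was lower, 11 of 12 neutrophil, 8 of 9 megakaryocyte and platelet, 3 of the 5 measured B cell and 5 of 12 stromal markers were at least 2-fold lower, while 1 of 12 macrophage and 0 of 12 osteoclast markers were. Of all genes 5.84% were lower at this step. The summed stromal signal was 25902 on day 7 against 37705 on day 5. The part of these cells in the levels of Slc7a11 and Gclc was not tested.

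**Figure D5:**
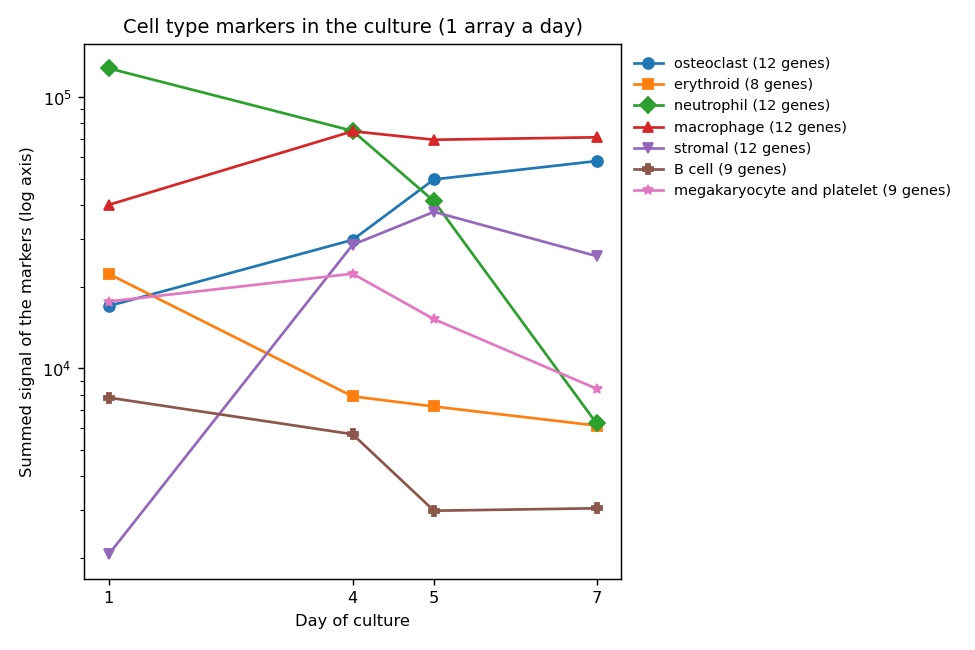
Summed signal (log axis) of the markers of 7 cell types against the day of culture, with 1 array a day. Neutrophil markers end at 6259 on day 7, osteoclast markers at 58021 and macrophage markers at 70978, and from day 4 the red cell sum is that of Tfrc with markers under the floor.

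Among called genes, the share that was higher depends on scaling. It was 12.7% on day 7 over day 5, 25.5% against day 4 and 43.9% against day 1. Quantile normalization gave 31.7%, 43.8% and 56.3%, and scaling to a common median 27.2%, 39.9% and 53.1%. The median over all genes on day 7 over day 5 was -0.11, or 0.03 and 0.06 with these scalings. Against day 4 it was -0.08, or 0.04 and 0.08, and against day 1 it was 0.03, or 0.14 and 0.16. On day 7 over day 5 the log2 difference of Slc7a11 was -1.76. Under the 8 other settings tried it lay between -2.00 and -1.40.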

How the data were processed

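RNA of 4 mouse marrow samples, 1 for each of days 1, 4, 5 and 7, was hybridised to Affymetrix arrays, with 250.0 ng of total RNA made into biotinylated cRNA, per the labels' protocols. The authors deposited 1 intensity per probe set and array, on a linear scale. GCOS 1.4 and MAS5 are named in the submitters' processing notes, without a scaling target. Precision is limited by the number of arrays, and between 46.6% and 52.6% of probe sets lay above the floor.

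The 64 control probe sets were left out, save for the SD of the spiked ones. Of the other 45037, GEO's platform annotation gives 1 gene symbol for 34945, several for 932 and none for 9160. Only the first kind was named. Entrez numbers of 34741 were found in RefSeq's GRCm38.p6 gene table, which changed 0 symbols. Each of 18193 genes was represented by the probe set of highest mean log2 signal. Signals under the floor of 32.4 were set to it, and a gene above it on 1 of 2 arrays has a bound. A background percentage counts genes above the floor on at least 1 of the 2 arrays. With 1 array a group nothing was tested.

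The antioxidant genes, the 9 lists and the 7 marker lists were chosen with earlier results of these data known. Named from each list were at most the 4 genes with the largest difference over any of the 5 comparisons that passed 2-fold. Gpx7, Mgst1, Mgst2 and Msrb2 were named beside them after their values were seen. Genes acting beside the antioxidant genes (such as Bach1, Mafg, Mafk, Cul3, Sqstm1, Gss, Gsr, Slc3a2, Gpx4, Txn1, Prdx3, Blvrb, Glrx, Mgst3, Osgin1 and Atf4) were added after their values were seen. The genes of likest pattern were the 5 nearest to Nfe2l2 and to the antioxidant gene of widest range. The alternatives were floors at the 25th and 60th percentiles (8.43 and 68.9), no floor with 16 added, quantile normalization, median scaling, the mean over probe sets, no _s_at or _x_at probe sets, and thresholds of 1.5-fold and 3-fold. Counting the shared probe sets as Prdx1 was added after seeing the data. The calling was tested on simulated data. Python 3.11.15, numpy 2.4.6, pandas 2.3.3 and matplotlib 3.10.9 were used.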

Additional observations from a re-analysis of the deposited data

How the results depend on the processing

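Counts of the 9 genes past the threshold rest on small numbers and on values close to 2-fold. Of 100 recomputed counts, 86 stayed within 1.5 times the count reported and 14 moved. Many of the 86 were 0 as reported and 0 again. The lower floor could not change a count, because all 9 genes lay above the main floor on every array. The 86 are therefore not a measure of how stable the counts above 0 are. The 2 genes higher on day 4 over day 1 became 1 under quantile normalization (Srxn1), under median scaling (Hmox1), with the mean over probe sets (Hmox1) and without _s_at and _x_at probe sets (Hmox1), and 0 at 3-fold. The 2 genes lower on day 7 over day 4 became 1 under median scaling (Slc7a11), 4 at 1.5-fold and 0 at 3-fold. The 1 gene lower on day 7 over day 5 became 4 at 1.5-fold (Nqo1, Hmox1, Gclc and Slc7a11). On day 7 over day 1 the count of lower genes was 2 with the mean over probe sets (Nfe2l2 and Slc7a11) and 3 at 1.5-fold, and that of higher genes was 1 under median scaling and 1 at 1.5-fold (Srxn1 in both). On day 5 over day 4, 1 gene was lower at 1.5-fold (Nfe2l2).

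Of 45 single differences (9 genes in 5 comparisons), 9 changed sign under at least 1 of 8 alternatives, and 0 of these were at 2-fold or more as reported. The 9 were of Nfe2l2, Keap1, Hmox1, Srxn1 and Txnrd1. Among the alternatives, the lower floor and counting the shared probe sets as Prdx1 could not change any of the 45 differences. The higher floor changed only those of Slc7a11, and leaving out _s_at and _x_at probe sets only those of Srxn1. Slc7a11 on day 7 over day 5 stayed between -2.00 and -1.40 in log2. No paired analysis was possible because each day has 1 array and the labels carry no replicate numbers. For signals near the floor, such as the second probe sets of Nfe2l2 and Slc7a11, only a bound can be given on day 7. The cause of the moved counts was not tested, beyond the thresholds themselves.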
